A study of Mus musculus with 3 samples.

Results

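The genes described here were the targets and transducers of bone morphogenetic protein (BMP) signaling that were chosen by symbol. They were the 4 Id genes, the inhibitory Smads Smad6 and Smad7, the pseudoreceptor gene Bambi, the receptor-activated Smads Smad1 and Smad5, and the common partner Smad4. They made up 10 of the 31053 genes in the tables. Each was read in 2 classes of cells from subcutaneous implants in CD-1 female mice of 6 to 8 weeks, collected on day 5. Stromal cells were cells with at least 1% of their transcript molecules (UMIs) from Col1a1, Col1a2, Col3a1, Dcn and Lum together, and macrophages were cells below 1% with a UMI of Csf1r or C1qa.

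The mice carried no transgene. Matrigel-only mice received Matrigel, a basement membrane gel, without rhBMP2 and without oral treatment. Vehicle mice received rhBMP2 in Matrigel and the drug's carrier of corn oil and DMSO by mouth each day. Palo mice received rhBMP2 in Matrigel and palovarotene, an agonist of retinoic acid receptor gamma, at 4 mg/kg by mouth each day. Vehicle and Palo therefore shared rhBMP2, whereas Matrigel-only differed from Vehicle in both rhBMP2 and the oral carrier. Each condition was 1 single-cell library, so differences between conditions could not be set against a spread between replicates. All intervals below are 95% intervals that cover counting error only. The Vehicle library entered both main comparisons, so these share their counts.

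BMPs are secreted ligands that bring together type I and type II receptor kinases, which phosphorylate Smad1, Smad5 and Smad9. The phosphorylated Smads bind Smad4, enter the nucleus and switch on target genes, among which the Id genes are the classic early ones. Id proteins lack a DNA-binding region and hold back basic helix-loop-helix (bHLH) transcription factors. Smad6, Smad7 and Bambi are induced by the same pathway and dampen it, Smad6 and Smad7 at the receptors and between the Smads, and Bambi as a membrane protein that resembles a type I receptor without its kinase. BMP signaling drives mesenchymal cells toward cartilage and bone, and implanted BMP2 is a standard way to form ectopic bone in rodents. Smad7 is also a target of TGF-beta signaling, which runs through Smad2 and Smad3.

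The DNA just before 3 of the genes is shown for 2 targets and a transducer. Smad6 and Id4 are examples from the inhibitors and the Id family, and Smad5 from the transducers. Id4 was the lowest Id gene in stromal cells and was not higher in Vehicle. The sequences are from RefSeq on build GRCm38.p6 (mm10), in the 5′ to 3′ direction of the gene, and hold the 250 bases before the first base of the gene as RefSeq gives it, with no annotated exon. Capitals mark GGCGCC and GGAGCC on either strand (GGCTCC is the latter on the other strand), which are forms of the GC-rich element known to be bound by Smad1 and Smad5. No capital stretch overlaps another. Smad6 lies on the minus strand (chr9:64022060-64022309), and Id4 (chr13:48260866-48261115) and Smad5 (chr13:56702760-56703009) on the plus strand.
Smad6: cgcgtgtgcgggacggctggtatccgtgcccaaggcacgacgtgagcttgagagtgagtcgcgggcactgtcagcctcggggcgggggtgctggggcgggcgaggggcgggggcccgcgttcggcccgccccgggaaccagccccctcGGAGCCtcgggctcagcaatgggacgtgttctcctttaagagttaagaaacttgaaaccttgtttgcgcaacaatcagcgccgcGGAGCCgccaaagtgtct
Id4: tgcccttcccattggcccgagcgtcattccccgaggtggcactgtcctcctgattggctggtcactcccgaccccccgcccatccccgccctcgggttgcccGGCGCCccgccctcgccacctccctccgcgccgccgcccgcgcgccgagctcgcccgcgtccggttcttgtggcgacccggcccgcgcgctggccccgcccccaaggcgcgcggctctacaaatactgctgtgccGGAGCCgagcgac
Smad5: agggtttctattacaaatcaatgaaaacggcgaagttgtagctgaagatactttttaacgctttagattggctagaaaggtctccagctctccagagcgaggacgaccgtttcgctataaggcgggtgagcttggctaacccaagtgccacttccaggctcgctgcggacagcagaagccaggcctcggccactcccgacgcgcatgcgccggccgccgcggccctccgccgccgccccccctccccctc

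The Smad6 stretch held 2 copies of GGAGCC and the Id4 stretch held 1 GGCGCC and 1 GGAGCC, while the Smad5 stretch held neither. The table lists 3 starts for Smad5, of which the first is shown, and the windows before the others held 1 GGCGCC and 1 GGAGCC respectively. GGCGCC, which reads the same on both strands, occurred in 9.59% of all 32851 such windows in the table, and GGAGCC in 26.0%. The shorter Smad element GTCT on either strand occurred in 82.9% of the windows, once each in the Smad6 and Smad5 stretches. AGGTCA on either strand, the half-site of retinoic acid receptors and related nuclear receptors, occurred in 14.0% of the windows and in none of these 3 stretches. These are matches of letters, not measured binding. Windows on chromosome 18, where Smad7, Bambi and Smad4 lie, were not examined for these genes, and Id1 had no entry. The other 6 of the 10 genes had an entry among the windows examined. The Id2 window held 1 GGCGCC and 1 GGAGCC, the Id3 window 1 GGAGCC and the Smad1 window neither, and these windows overlapped exons. GC content was 75.6% in the Id4 stretch, 66.8% in the Smad6 stretch and 60% in the Smad5 stretch.

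There were 2085 stromal cells and 5812 macrophages in Matrigel-only, 1373 and 3253 in Vehicle, and 1184 and 5661 in Palo. All 10 stromal markers and all 10 macrophage markers fixed for the check had UMIs in their class in each library. All of them also had UMIs in the other class, so the check rests on their sums. Stromal markers summed to 14059 to 18548 counts of UMIs scaled to 1000000 UMIs of the class (CPM) in stromal cells and 98.7 to 199 CPM in macrophages. Macrophage markers summed to 18831 to 24659 CPM in macrophages and 295 to 866 CPM in stromal cells. Median depth per stromal cell was 9082 UMIs in Matrigel-only, 17114 for Vehicle and 12955 for Palo. Shares of cells with a UMI of the 10 genes are therefore given after each cell was thinned at random to 3100 UMIs. Between 54 and 207 stromal cells per library were too shallow for this. Shares for other genes, and the division into groups below, were read before thinning unless stated, so they can also follow depth. Pairs of libraries shared 11 to 21 cell barcodes.

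The stromal class differed in make-up between the libraries. Before thinning, Acan, which encodes the cartilage proteoglycan aggrecan, had a UMI in 56.7% of Vehicle stromal cells but in 0.0480% of Matrigel-only and 0.338% of Palo cells. Sox9, the master regulator of cartilage, had a UMI in 23.7% of Matrigel-only, 79.7% of Vehicle and 34.5% of Palo stromal cells, and Pi16, a marker of fibroblast progenitors, in 55.3%, 12.2% and 31.1%. Stromal cells were therefore also divided, in this order, into cells with Acan, with Sox9 but no Acan, with Pi16 but neither of these, and with none of the 3. Chondrocyte markers summed to 3761 CPM in Vehicle stromal cells, against 23.6 CPM in Matrigel-only and 66.7 CPM in Palo. Pericyte and smooth muscle markers summed to 340, 1143 and 666 CPM, with Acta2 carrying 828 CPM in Vehicle and Rgs5 at 0.254 CPM there.

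Among the BMP targets, Id1, Id3 and Bambi were higher in Vehicle than in Matrigel-only stromal cells by more than 2-fold, and all 3 were lower again in Palo, Bambi past 2-fold and Id1 and Id3 just short of it. Smad6 and Smad7 lay in the same order at smaller size, Id2 moved little, and the transducers Smad1, Smad5 and Smad4 were slightly lower in Vehicle.

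Id1 (ENSMUSG00000042745, chr2:152736251-152737410, plus strand, coordinates of all genes from GENCODE vM21 on mm10), the Id gene most often used as a readout of BMP signaling, stood at 42.5 CPM (interval 39.7 to 45.5) in Matrigel-only, 101 CPM (97.2 to 105) in Vehicle and 51.3 CPM (47.8 to 54.9) in Palo stromal cells. At equal depth it had a UMI in 10.4%, 20.8% and 12.6% of stromal cells, against 21.2%, 46.3% and 30.4% before thinning. Vehicle was the high library, and the 3 intervals did not overlap. The ratio of Vehicle to Matrigel-only CPM was 2.38 (log2 1.25, interval 1.14 to 1.36), that of Palo to Vehicle was 0.507 (log2 -0.98, -1.10 to -0.87), and that of Palo to Matrigel-only was 1.21 (log2 0.27, 0.13 to 0.41).

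Id3 (ENSMUSG00000007872, chr4:136143497-136145755, plus strand), the close relative of Id1, stood at 241 CPM (235 to 248) in Matrigel-only, 642 CPM (632 to 652) in Vehicle and 326 CPM (317 to 335) in Palo. Its share of cells at equal depth was 42.3%, 69.4% and 47.2%. The Vehicle level was again the highest and the Matrigel-only level the lowest, with no overlap of intervals. The log2 ratio of CPM was 1.41 (1.36 to 1.46) for Vehicle over Matrigel-only, -0.98 (-1.02 to -0.93) for Palo over Vehicle, and 0.43 (0.38 to 0.49) for Palo over Matrigel-only.

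Id2 (ENSMUSG00000020644, chr12:25093799-25097140, minus strand), which is also widely used by immune cells, stood at 142 CPM (137 to 147), 160 CPM (155 to 165) and 133 CPM (128 to 139) in Matrigel-only, Vehicle and Palo stromal cells. Its log2 ratio of 0.17 for Vehicle over Matrigel-only turned to -0.14 when cells with Acan were left out. Id4 (ENSMUSG00000021379, chr13:48261228-48266026, plus strand) stood at 4.89 CPM (3.97 to 5.96), 3.94 CPM (3.18 to 4.83) and 6.13 CPM (4.97 to 7.47), below the 10 CPM that the 2-fold rule asked for in 1 of the 2 libraries. Its Matrigel-only interval overlapped those of both other libraries, while those of Vehicle and Palo did not overlap.

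Bambi (ENSMUSG00000024232, chr18:3507923-3516404, plus strand) differed most among the 10 genes. Its level was 7.88 CPM (6.70 to 9.21) in Matrigel-only, 71.5 CPM (68.1 to 75) in Vehicle and 13.7 CPM (11.9 to 15.7) in Palo stromal cells, and its share of cells at equal depth was 2.39%, 17.3% and 3.98%. The ratio of Vehicle to Matrigel-only CPM was 9.07 (log2 3.18, 2.95 to 3.43), and Vehicle over Palo was 5.22 (4.53 to 6.04). Palo remained above Matrigel-only by 1.74-fold (1.41 to 2.15).

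Smad7 (ENSMUSG00000025880, chr18:75367529-75395935, plus strand), the inhibitory Smad shared with TGF-beta signaling, stood at 51.8 CPM (48.7 to 55.0) in Matrigel-only, 98.0 CPM (94.1 to 102) in Vehicle and 68.0 CPM (64.0 to 72.2) in Palo. Smad6 (ENSMUSG00000036867, chr9:63953076-64022059, minus strand), the inhibitory Smad more specific to BMP signaling, stood at 13.8 CPM (12.2 to 15.5), 22.3 CPM (20.4 to 24.3) and 13.4 CPM (11.6 to 15.3). Both genes were highest in Vehicle, without reaching 2-fold. The ratio of Vehicle to Matrigel-only CPM was 1.89 (1.76 to 2.04) for Smad7 and 1.62 (1.40 to 1.88) for Smad6. In Palo against Matrigel-only, Smad7 had a log2 ratio of 0.39 (0.27 to 0.52), whereas the intervals of Smad6 overlapped (-0.04, -0.31 to 0.22).

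The transducers went the other way between Vehicle and Matrigel-only. Smad1 (ENSMUSG00000031681, chr8:79338395-79399518, minus strand) stood at 75.7 CPM (72.0 to 79.6), 55.2 CPM (52.2 to 58.3) and 68.3 CPM (64.3 to 72.5) in Matrigel-only, Vehicle and Palo stromal cells. Smad5 (ENSMUSG00000021540, chr13:56703010-56742377, plus strand) stood at 86.1, 68.8 and 75.6 CPM, and Smad4 (ENSMUSG00000024515, chr18:73639009-73703780, minus strand) at 72.7, 62.2 and 75.1 CPM. Vehicle was the lowest library for all 3 genes, with log2 ratios to Matrigel-only of -0.46 (-0.56 to -0.35), -0.32 (-0.42 to -0.22) and -0.22 (-0.33 to -0.12). For Smad4 the intervals of Matrigel-only and Palo overlapped.

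**Figure D1:**
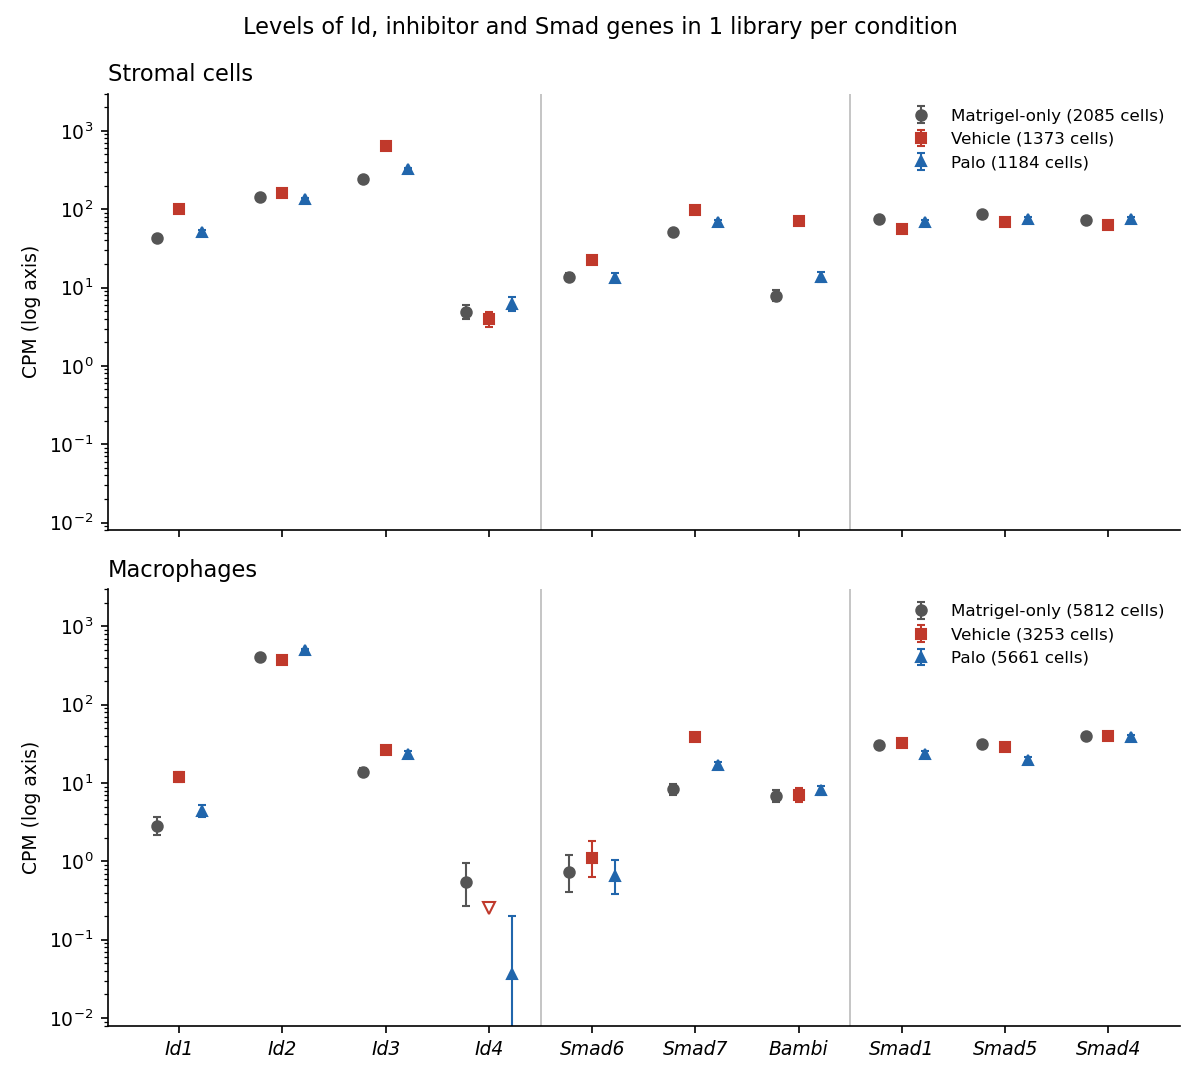
Level of each of the 10 genes in stromal cells and macrophages of the 3 libraries, in CPM on a log axis, with 95% Poisson intervals that cover counting error only (1 library per condition). In stromal cells the Vehicle points of Id1 (101 CPM), Id3 (642 CPM) and Bambi (71.5 CPM), among others, sit above those of both other libraries. In macrophages the Vehicle points of Id1 (11.9 CPM) and Smad7 (38.6 CPM) sit above both others without overlap, and that of Id2 (372 CPM) sits below them.

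Of the 9 members with at least 10 CPM in 1 of the libraries, 3 were past 2-fold in Vehicle against Matrigel-only stromal cells, all higher. Over all genes tested, 15.2% were past 2-fold in this comparison and 5.09% were higher. The members' median log2 ratio was 0.70, beside -0.03 over 9227 genes. In Palo against Vehicle, 1 of the 9 members (Bambi, lower) was past 2-fold, where 12.2% of all genes were and 5.17% were lower, and the medians were -0.53 and 0.01. In Palo against Matrigel-only no member was, where 2.71% of all genes were. Libraries were scaled to the class total, and trimmed-mean factors placed Id1 and Id3 past 2-fold in Palo against Vehicle as well (log2 -1.02 for both).

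**Figure D2:**
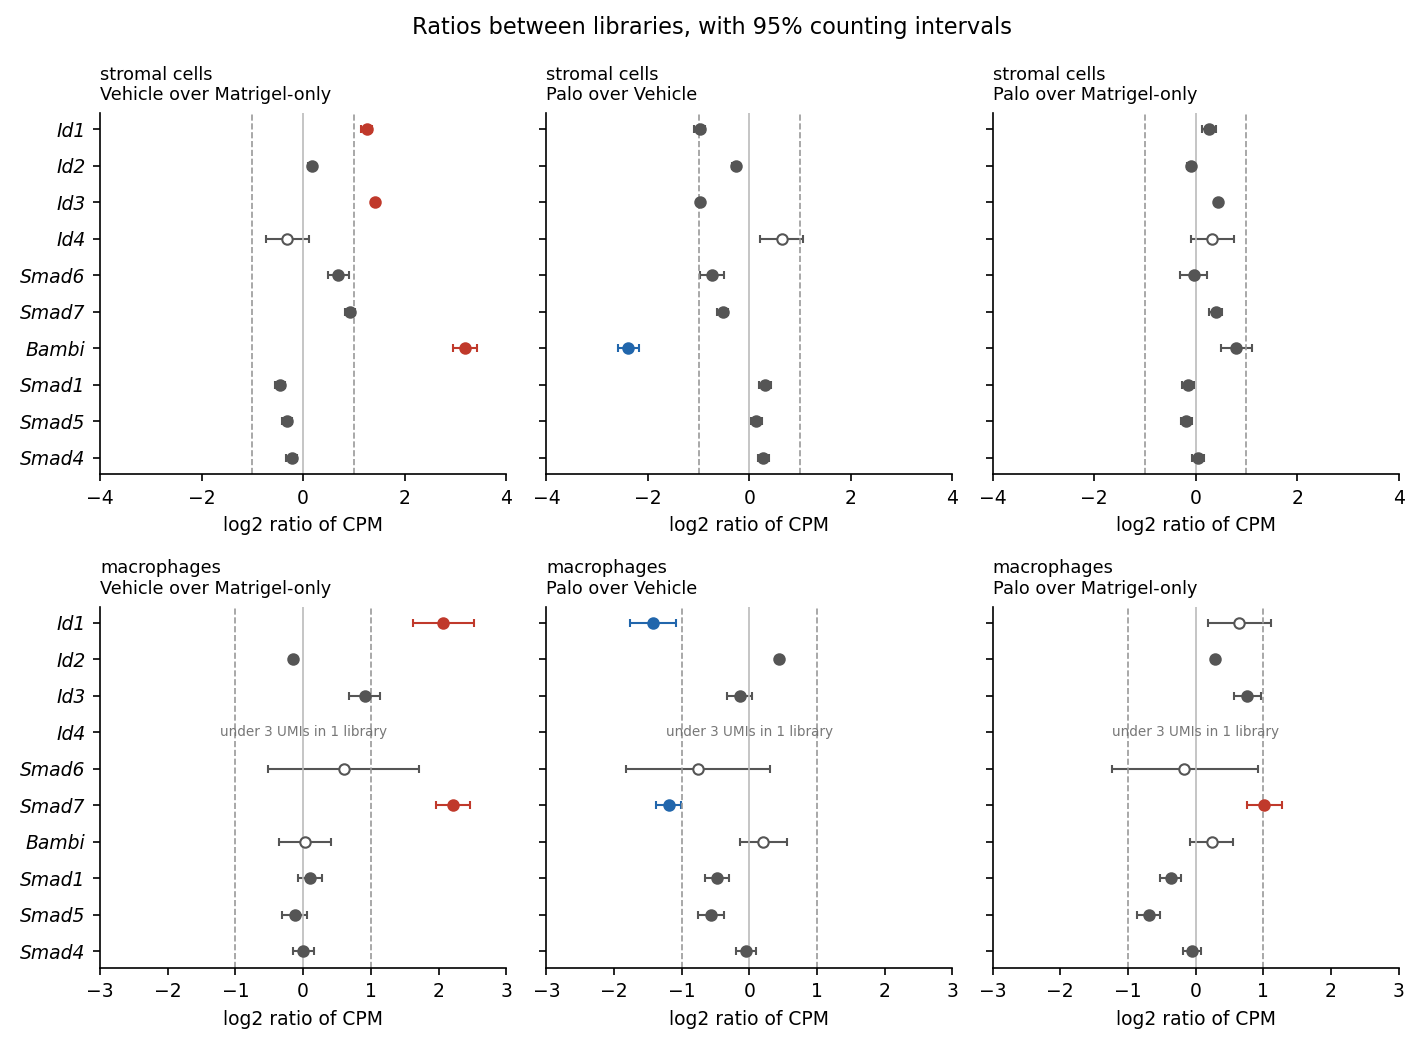
Log2 ratio of CPM for each gene in the 3 comparisons, in stromal cells and in macrophages, with 95% conditional binomial intervals that cover counting error only. Bambi in stromal cells has the highest plotted ratio of the stromal panels for Vehicle over Matrigel-only (3.18) and the lowest for Palo over Vehicle (-2.38), and Smad1, Smad5 and Smad4 lie within 2-fold in both classes.

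The divided stromal class showed where each gene stood. In Matrigel-only, Id1 was at 24.1 CPM (20.9 to 27.7) in cells with Pi16 only, 34.8 CPM (30.2 to 39.9) in cells with none of the 3 genes and 76.9 CPM (69.9 to 84.4) in cells with Sox9. In Vehicle it was at 10.4 CPM (5.00 to 19.2, from 10 UMIs in 80 cells) in cells with Pi16 only, 88.6 CPM (74.5 to 105) in cells with none, 91.7 CPM (84.8 to 99.0) in cells with Sox9 and 114 CPM (108 to 120) in cells with Acan. In Palo stromal cells it was at 17.4 CPM (13.2 to 22.5), 46.3 CPM (41.2 to 51.9) and 75.2 CPM (68.5 to 82.4) in the first 3 groups.

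The cells with Pi16 only were the lowest for Id1 in each library, and the cells with Sox9 were 3.19-fold above them in Matrigel-only (2.69 to 3.79), 8.80-fold for Vehicle (4.75 to 18.4) and 4.33-fold for Palo. In Sox9 cells without Acan, Id1 lay between 75.2 and 91.7 CPM in the 3 libraries, and between 77.1 and 120 CPM in groups rebuilt from cells thinned to equal depth. Vehicle over Matrigel-only had a log2 ratio of CPM of 0.25 (0.08 to 0.43), and the Palo and Matrigel-only intervals overlapped (-0.03, -0.22 to 0.16). In cells with none of the 3 genes the same Vehicle to Matrigel-only ratio was 1.35 (1.03 to 1.67), and in cells with Pi16 only it was -1.21 (-2.29 to -0.30). The rebuilt groups were set by which UMIs of the 3 genes were left after thinning, while levels used each cell's full counts. Id1 in rebuilt cells with Pi16 only was at 18.4 CPM (15.4 to 21.9) in Matrigel-only and 15.3 CPM (8.72 to 24.8) in Vehicle, with overlapping intervals. In rebuilt cells with none Id1 was at 48.0 CPM (43.8 to 52.4) and 84.2 CPM (77.4 to 91.6), higher in Vehicle but by less than 2-fold. The rebuilt group with none had 842 cells in Matrigel-only and 338 in Vehicle, against 579 and 123 before thinning. It therefore mixed cells without the 3 genes and cells that held some of them before thinning, in unequal parts between libraries.

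Id3 in Vehicle stood at 246 CPM in cells with Pi16 only and at 654, 678 and 649 CPM in cells with none, with Sox9 and with Acan, so the last 3 groups lay within 1.04-fold of each other. In groups rebuilt at equal depth it was at 638 CPM (619 to 658) with none, 768 CPM (741 to 795) with Sox9 and 638 CPM (624 to 653) with Acan. In Matrigel-only the values were 200 CPM with Pi16 only, 203 CPM with none and 341 CPM with Sox9. In Palo they were 164, 304 and 437 CPM. Within cells with Sox9 the log2 ratio of Vehicle over Matrigel-only was 0.99 (0.91 to 1.07), and within cells with none it was 1.69 (1.57 to 1.81).

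Bambi was highest where Acan was detected. In Vehicle it was at 12.5 CPM (12 UMIs) in cells with Pi16 only, 20.4 CPM in cells with none, 40.9 CPM (36.3 to 45.9) with Sox9 and 97.0 CPM (91.9 to 102) with Acan. The cells with Acan exceeded those with Sox9 by 2.37-fold (2.09 to 2.7) for Bambi and by 1.24-fold for Id1 (1.13 to 1.36). In groups rebuilt from cells thinned to equal depth, Bambi was at 105 CPM with Acan and 52.5 CPM with Sox9, whereas Id1 was at 113 CPM (107 to 119) and 120 CPM (110 to 131), with overlapping intervals and the other direction. Smad6 went the other way, at 17.8 CPM with Acan and 30.1 CPM with Sox9 (log2 -0.76, -1.03 to -0.49). In cells with Sox9 and no Acan, Bambi was at 40.9 CPM in Vehicle, against 11 CPM in Matrigel-only and 17.7 CPM in Palo. The log2 ratio of CPM there was 1.89 (1.5 to 2.30) for Vehicle over Matrigel-only and -1.21 (-1.54 to -0.89) for Palo over Vehicle.

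Smad7 followed Id1 in being lowest in cells with Pi16 only, at 32.8, 27.1 and 34.4 CPM in Matrigel-only, Vehicle and Palo. In cells with Sox9 it was at 70.7, 115 and 83.7 CPM. Cells with none of the 3 genes held 59.9, 101 and 70.9 CPM. Smad6 in cells with none was at 9.92 CPM (7.55 to 12.8), 31.9 CPM (23.7 to 42.0) and 12.0 CPM (9.43 to 15.0), the widest spread it had in any group.

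**Figure D3:**
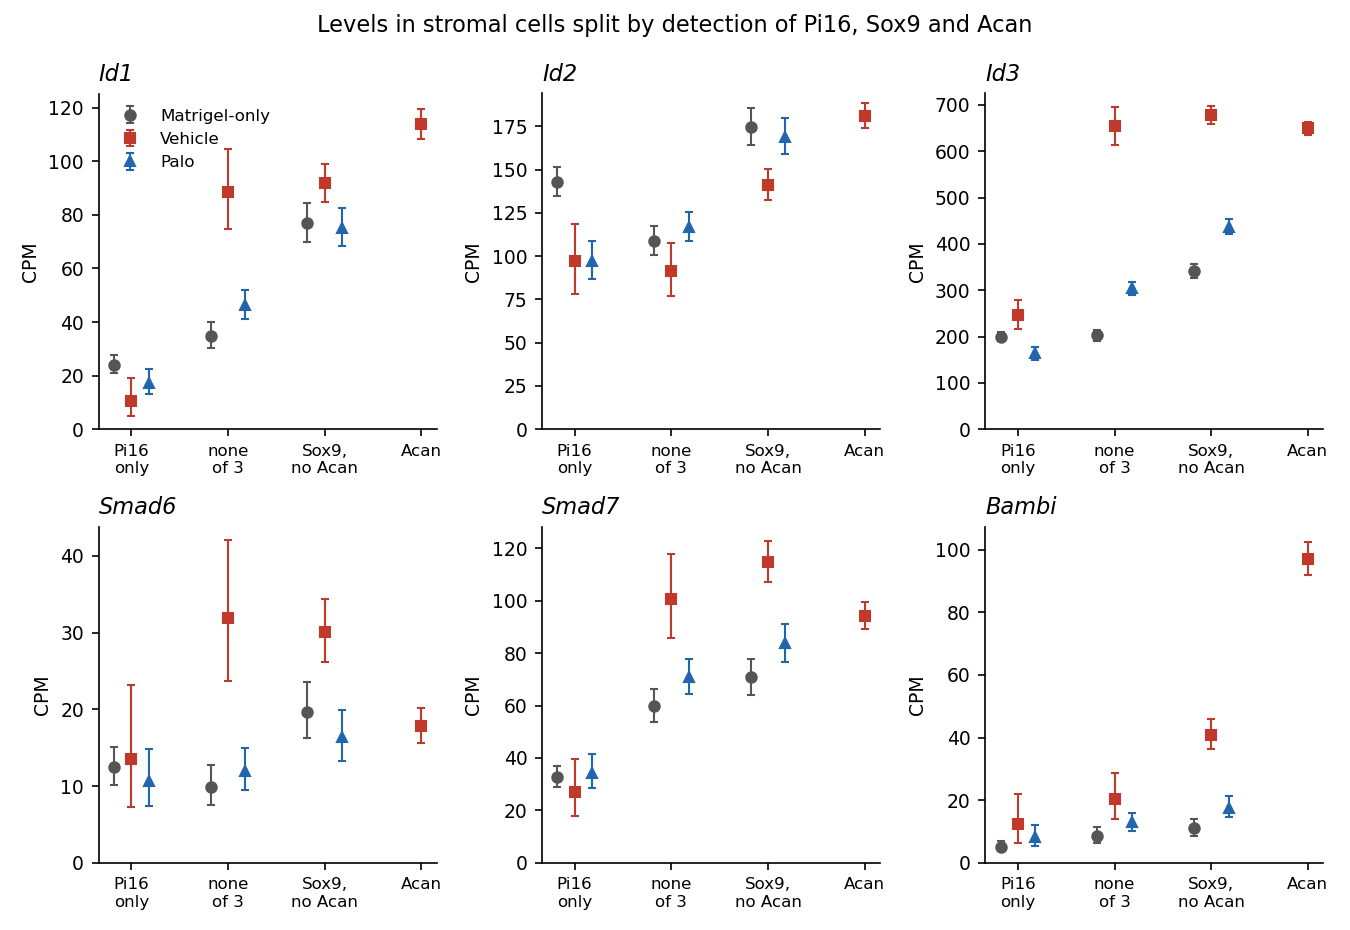
Level of the target genes in stromal cells divided by detection of Pi16, Sox9 and Acan, by library, in CPM on a linear axis from 0 with 95% Poisson intervals that cover counting error only. Cells with Acan were enough to plot in Vehicle alone (779 cells), where Bambi reaches 97.0 CPM, and cells with Pi16 only hold the lowest Id1 in each library (10.4 to 24.1 CPM).

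In cells with Sox9 but no Acan, 1 member (Bambi, higher) was past 2-fold in Vehicle against Matrigel-only, where 10.1% of all genes tested were and 2.75% were higher. In Palo against Vehicle the same gene was lower in these cells, where 8.72% of all genes were past 2-fold and 3.7% were lower. In cells with none of the 3 genes the members past 2-fold in Vehicle against Matrigel-only were Id1, Id3, Id4, Smad6 and Bambi, all higher, where 11.7% of all genes were and 3.64% were higher. Id4 rested there on 18 Vehicle UMIs, at 11.5 CPM (6.80 to 18.1). In the groups rebuilt at equal depth, Id4 was under 10 CPM in cells with none (5.09 in Matrigel-only and 6.07 in Vehicle), and Id1 was within 2-fold. In Palo against Vehicle, Id3 and Smad6 were lower in cells with none past 2-fold, where 10.1% of all genes were and 3.86% were lower. Rebuilt at equal depth, Id3 there was at 638 CPM in Vehicle and 328 CPM in Palo, short of 2-fold. The rebuilt cells with none also took in cells that held some of the 3 genes before thinning.

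In cells with Pi16 only, Id1 was lower and Bambi higher in Vehicle than in Matrigel-only, where 6.82% of all genes were past 2-fold, 3.86% lower and 2.96% higher, and the Vehicle levels rest on 10 and 12 UMIs. Rebuilt at equal depth, Bambi there was at 5.10 CPM (3.58 to 7.07) in Matrigel-only and 9.53 CPM (4.57 to 17.5) in Vehicle. Both levels were under 10 CPM, with overlapping intervals. No member was past 2-fold in these cells in Palo against Vehicle, where 7.07% of all genes were. In Palo against Matrigel-only no member was past 2-fold in any of the 3 groups, where 2.87% of all genes were in cells with Sox9, 2.46% in cells with Pi16 only and 2.42% in cells with none. With the 3 groups without Acan weighted as in Matrigel-only, Id1 came to 42.6 CPM in Matrigel-only, 57.2 CPM in Vehicle and 42.7 CPM in Palo, and Bambi to 7.88, 23.1 and 12.3 CPM. Id3 came to 242, 492 and 285 CPM on the same weights.

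The 779 Vehicle stromal cells with Acan were also compared among themselves. In the 407 cells with a UMI of Col2a1, the main collagen of cartilage, Bambi stood at 118 CPM (110 to 126), against 74.1 CPM (67.7 to 81.0) in the 372 cells without. Id1 stood at 109 CPM (102 to 117) and 119 CPM (111 to 128), Smad7 at 85.3 and 104 CPM, and Smad1 at 45.4 and 62.0 CPM. Divided into 3 bins of equal size by Acan CPM, Bambi was at 66.4 CPM (59.3 to 74.0) in the lowest, 96.4 CPM (87.5 to 106) in the middle and 130 CPM (120 to 141) in the highest bin. Id1 was at 117, 111 and 113 CPM in the same order, with overlapping intervals, and Smad6 at 23.4, 14.5 and 15.1 CPM. The cells came from 1 library and are not replicates.

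**Figure D4:**
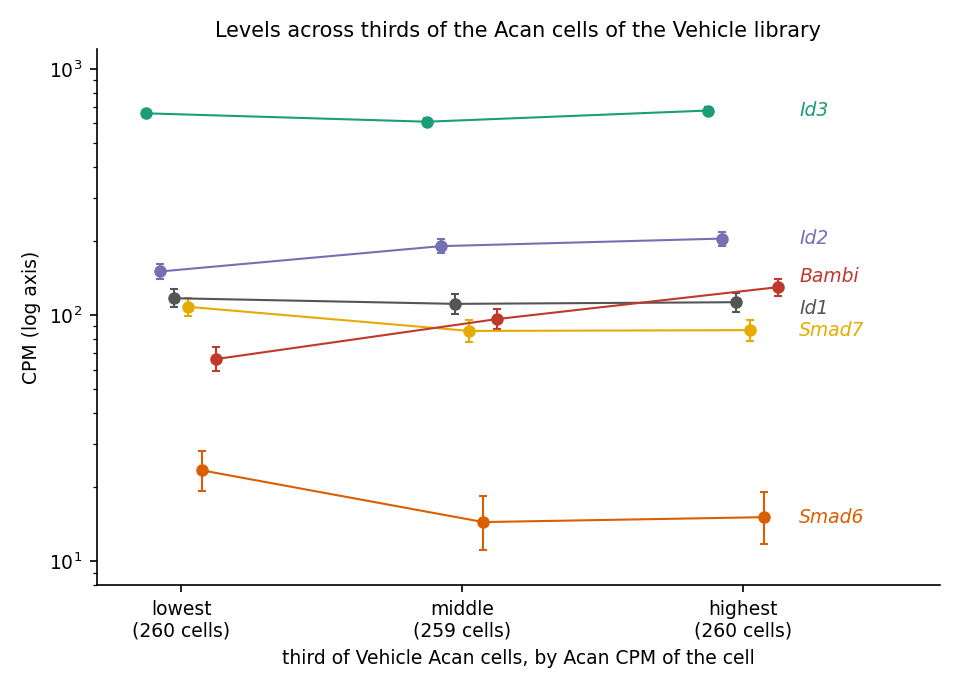
Level of the target genes in Vehicle stromal cells with Acan, divided into 3 bins by Acan CPM, in CPM on a log axis with 95% Poisson intervals that cover counting error only. Bambi lies at 66.4, 96.4 and 130 CPM from the lowest to the highest bin, while Id1 stays between 111 and 117 CPM.

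The number of the 6 targets Id1, Id2, Id3, Smad6, Smad7 and Bambi detected per stromal cell at equal depth averaged 1.03 in Matrigel-only, 1.69 for Vehicle and 1.13 for Palo. In cells with Sox9 the averages were 1.41, 1.67 and 1.46, and in cells with Pi16 only 0.876, 0.828 and 0.728. Cells with Acan in Vehicle averaged 1.81.

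Other features of the stromal cells also differed between the libraries beside these genes. Before thinning, a UMI of the proliferation genes Mki67 or Top2a was found in 14.0% of Matrigel-only, 31.3% of Vehicle and 20.4% of Palo stromal cells. Id1 was at 55.7 CPM in such cells and 39.2 CPM in the others in Matrigel-only, 115 and 93.2 CPM in Vehicle, and 66.0 and 46.3 CPM in Palo. The order of the libraries for Id1 was thus the same in both kinds of cells. The shares with Mki67 or Top2a can also follow depth. A list of 5 cycling genes that holds both summed to 277, 383 and 298 CPM in Matrigel-only, Vehicle and Palo stromal cells. In cells with Sox9 but no Acan the list summed to 398, 283 and 302 CPM, lowest in Vehicle. It was highest in Vehicle in cells with Pi16 only and with none. Early-response genes such as Fos and Egr1, which are known to be raised by tissue dissociation, summed to 1265 CPM in Matrigel-only, 667 CPM in Vehicle and 1379 CPM in Palo stromal cells, so that Vehicle, the highest library for Id1, was the lowest for them. The part of proliferation, of dissociation and of pericyte or smooth muscle cells in the target genes was not tested.

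Other genes known to respond to BMP were taken from a list of 12. Of the 7 with at least 10 CPM in Matrigel-only or Vehicle stromal cells, 4 were higher in Vehicle past 2-fold and none lower, where 15.2% of all genes were past 2-fold and 5.09% were higher, and the median log2 ratio was 1.06. Sp7, an osteoblast transcription factor, stood at 1.30 CPM in Matrigel-only, 102 CPM in Vehicle and 1.58 CPM in Palo. Dlx5, a homeobox gene of early bone and cartilage, stood at 1.05, 10.3 and 0.758 CPM, and Runx2, the master regulator of osteoblasts, at 31.8, 82.6 and 49.6 CPM. Atoh8 stood at 21.3, 44.2 and 21.9 CPM. These 4 genes were highest in Vehicle, as were Id1, Id3 and Bambi.

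Those 4 were the only genes of the 7 with a log2 ratio of Vehicle over Matrigel-only above 0, and the lowest value was -0.48. Grem1, which encodes a secreted BMP antagonist, was 1 of the 3 others, which were not highest in Vehicle. It was at 28.0 CPM (25.8 to 30.4) in Matrigel-only, 20.6 CPM (18.8 to 22.6) in Vehicle and 64.6 CPM (60.7 to 68.7) in Palo stromal cells. Palo was the high library, with a log2 ratio of 1.65 (1.49 to 1.80) to Vehicle and 1.20 (1.05 to 1.36) to Matrigel-only. By group, Grem1 was past 2-fold in Palo over Matrigel-only in cells with Pi16 only (log2 2.13), not in cells with Sox9 or with none. In Vehicle over Matrigel-only it was lower past 2-fold in cells with Sox9 (log2 -1.38) and higher past 2-fold in cells with Pi16 only. Of the 6 genes of the list with at least 10 CPM in Vehicle or Palo stromal cells, Dlx5, Atoh8 and Sp7 were lower in Palo past 2-fold and Grem1 higher, where 12.2% of all genes were past 2-fold.

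Among 9 bHLH genes, whose products Id proteins can hold back directly or through shared partners, 8 had at least 10 CPM in Matrigel-only or Vehicle stromal cells. Scx, a tendon and cartilage progenitor factor, was higher in Vehicle (4.09, 39.9 and 3.16 CPM in Matrigel-only, Vehicle and Palo), as was Bhlhe40 (77.9, 162 and 89.4 CPM). Hes1, a Notch target, was lower in Vehicle (128, 38.3 and 177 CPM), as was Twist2 (41.9, 20.8 and 60.6 CPM). These were the genes of the list past 2-fold in Vehicle against Matrigel-only, where 15.2% of all genes were. The list's median log2 ratio was -0.14, so its members did not move as one.

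The TGF-beta side was represented by 7 genes of the Smad2 and Smad3 arm. In stromal cells Smad3 was the one past 2-fold, at 29.0 CPM (26.7 to 31.4) in Matrigel-only, 11.6 CPM (10.2 to 13.0) in Vehicle and 29.0 CPM (26.5 to 31.8) in Palo, and the list's median log2 ratio was -0.09 for Vehicle over Matrigel-only. Among 6 genes for Smad turnover, which includes ubiquitin ligases and a phosphatase, Wwp1 was lower in Vehicle than in Matrigel-only (60.2 and 27.6 CPM) and Smurf1 was higher in Palo than in Vehicle (46.9 and 22.8 CPM). None of either list was past 2-fold in Palo against Matrigel-only. Over all genes in stromal cells, 15.2% were past 2-fold in Vehicle against Matrigel-only, 12.2% in Palo against Vehicle and 2.71% in Palo against Matrigel-only.

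Macrophages held a different set of the 10 genes. Id1 and Smad7 were higher in Vehicle than in Matrigel-only macrophages past 2-fold and lower in Palo than in Vehicle, whereas Bambi, which differed most in stromal cells, stood near the same low level in the 3 libraries. Id2 was the one gene of the 10 with a higher level in macrophages than in stromal cells in each library. Shares of macrophages with a UMI are given after thinning to 1400 UMIs, since the median depth was 3090.5, 3646 and 4254 UMIs.

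Smad7 stood at 8.35 CPM (7.14 to 9.70) in Matrigel-only, 38.6 CPM (35.4 to 41.9) in Vehicle and 16.9 CPM (15.4 to 18.5) in Palo macrophages. At equal depth 1.15%, 5.54% and 2.17% of the cells had a UMI, against 2.7%, 13.8% and 7.23% before thinning. The ratio of CPM was 4.62 (log2 2.21, 1.96 to 2.47) for Vehicle over Matrigel-only, 0.437 (log2 -1.19, -1.37 to -1.01) for Palo over Vehicle and 2.02 (log2 1.01, 0.76 to 1.28) for Palo over Matrigel-only. The intervals did not overlap.

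Id1 stood at 2.85 CPM (2.16 to 3.68), 11.9 CPM (10.2 to 13.8) and 4.45 CPM (3.69 to 5.31) in Matrigel-only, Vehicle and Palo macrophages. Its log2 ratio was 2.06 (1.63 to 2.52) for Vehicle over Matrigel-only and -1.42 (-1.77 to -1.08) for Palo over Vehicle. Id3 stood at 14.0 CPM (12.5 to 15.8), 26.3 CPM (23.7 to 29.1) and 23.8 CPM (22 to 25.7), so Vehicle and Palo overlapped and both lay above Matrigel-only. Id2 stood at 410 CPM (402 to 419), 372 CPM (362 to 382) and 502 CPM (494 to 510), with Palo the highest.

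Bambi was at 6.88 CPM (5.78 to 8.11), 7.04 CPM (5.73 to 8.55) and 8.09 CPM (7.06 to 9.23) in macrophages, with overlapping intervals. Smad6 was at 0.656 to 1.11 CPM, from 15 to 18 UMIs per library. Id4 had 11 UMIs in Matrigel-only, 0 for Vehicle and 1 for Palo macrophages. Smad4 was at 40.4, 40.4 and 39.1 CPM. Smad1 (30.5, 32.8 and 23.6 CPM) and Smad5 (31.6, 28.9 and 19.5 CPM) were lowest in Palo, within 2-fold.

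Of the 7 members with at least 10 CPM, 2 (Id1 and Smad7, higher) were past 2-fold in Vehicle against Matrigel-only macrophages, where 6.61% of all genes tested were and 4.19% were higher. In Palo against Vehicle the same 2 were lower past 2-fold, where 6.91% of all genes were past 2-fold and 5.16% were lower. In Palo against Matrigel-only Smad7 alone of 6 was past 2-fold, higher, where 2.46% of all genes were and 0.888% were higher. The members' median log2 ratios were 0.11, -0.48 and 0.12 in these comparisons, beside 0.01, -0.18 and -0.17 over all genes tested. Trimmed-mean factors raised Palo macrophage ratios by 0.20 against Vehicle, which left Smad7 at -0.99 there, and by 0.18 against Matrigel-only.

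Markers of the other class and of other cells were also read in macrophages. The summed stromal markers stood in macrophages at 1.07% of their stromal level in Matrigel-only, 1.35% for Vehicle and 0.565% for Palo. Id1 stood at 6.69%, 11.8% and 8.67% of its stromal level, and Smad7 at 16.1%, 39.4% and 24.8%. Bambi stood at 87.2%, 9.84% and 59.0%. All these shares were above that of the stromal markers in the same library. Chondrocyte markers, however, summed in macrophages to 3.93 CPM in Matrigel-only, 57.5 CPM in Vehicle and 3.53 CPM in Palo. Before thinning, 1.34%, 17.2% and 1.66% of macrophages had a UMI of them. The part of chondrocyte transcripts in the macrophage levels of Id1, Smad7 and Bambi was not tested. Without cells that held a UMI of Pdgfra or Prrx1, the log2 ratio of Vehicle over Matrigel-only in macrophages was 2.10 for Id1 and 2.23 for Smad7. That filter kept 5605 of 5812 Matrigel-only and 3142 of 3253 Vehicle macrophages and did not select on chondrocyte markers. It therefore cannot speak to the part of chondrocyte transcripts.

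Summed markers of other immune cells were highest in Vehicle in the macrophage class, as were Id1 and Smad7. Basophil and mast cell markers summed to 0.246 CPM in Matrigel-only macrophages, 20.1 CPM in those of Vehicle and 0.146 CPM in those of Palo, with Cpa3 at 0 in Vehicle and Mcpt8 and Ms4a2 at 0 in the other libraries. Lymphocyte markers summed to 2.60, 29.0 and 3.06 CPM and neutrophil markers to 38.1, 101 and 33.2 CPM. Dendritic cell markers summed to 56.0, 138 and 63.1 CPM. Endothelial markers summed to 40.2, 68.5 and 45.6 CPM, with Vwf going the other way. Cells with dendritic or endothelial markers were not left out below, and their part in the levels was not tested. Macrophages without a UMI of the basophil or mast, lymphocyte and neutrophil lists numbered 5198, 2412 and 4854. In them Smad7 was at 8.53 CPM (7.23 to 9.99), 36.5 CPM (32.9 to 40.4) and 17.3 CPM (15.6 to 19.0), and stayed past 2-fold in the 3 comparisons. Id1 was at 2.84 CPM (2.12 to 3.74), 9.79 CPM (7.96 to 11.9) and 4.12 CPM (3.34 to 5.03) there, which is below 10 CPM in each library, with log2 ratios of 1.78 for Vehicle over Matrigel-only and -1.25 for Palo over Vehicle.

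Among the 7 genes of the Smad2 and Smad3 arm, Pmepa1 and Skil were higher in Vehicle than in Matrigel-only macrophages past 2-fold and none was lower, and both were lower past 2-fold in Palo than in Vehicle. Over all genes, 6.61% were past 2-fold in the first comparison and 4.19% were higher, and 6.91% were in the second and 5.16% were lower. Pmepa1, which encodes a membrane inhibitor of TGF-beta signaling, stood at 23.3 CPM (21.3 to 25.5) in Matrigel-only, 162 CPM (155 to 168) in Vehicle and 29.3 CPM (27.3 to 31.4) in Palo macrophages. Skil, which encodes the Smad co-repressor SnoN, stood at 44.6, 102 and 50.4 CPM. The list's median log2 ratios were 0.17 and -0.26. Of the 12 BMP-responsive genes, 2 had at least 10 CPM in these macrophages, of which Runx2 was higher in Vehicle (5.16, 11.6 and 3.94 CPM).

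The genes whose pattern was most like that of Id1 were sought over 13 units, the stromal groups and macrophages with at least 50 cells in each library, by Pearson's r of log2(CPM + 5). Of 5135 genes with at least 50 CPM in 1 unit, the closest were Smad7 (r = 0.96), Cyp26b1 (0.96), Mbd3 (0.96), Runx2 (0.96) and Akt1s1 (0.95). Id3 had r = 0.90, Smad6 0.87, Bambi 0.70 and Id2 -0.54. Over the 10 stromal units, among 4203 genes, the closest were Cnn3 (0.97), Bex3 (0.97), Nsun2 (0.97), Smad7 (0.96) and Sertad2 (0.95), and Id2 had r = 0.58. The units of 1 library share its depth and preparation, and these values are descriptions.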

How the data were processed

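Single-cell suspensions of day 5 masses were sequenced as 3 libraries, 1 per condition. The study gives the number of masses per group, but how masses were pooled into a library and the chemistry were not given in the sources used here. The authors processed reads with Cell Ranger 3.0.2 on mm10 and deposited unnormalized UMI counts per gene and barcode, which are used here as deposited. The submitters' processing notes also name Seurat 3. Symbols and lists were chosen with earlier results of these data known, and groups came from the treatment labels.

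Totals were 44252421 UMIs in 9249 barcodes (Matrigel-only), 46317250 in 6065 (Vehicle) and 46901673 in 7905 (Palo). Cells with 200 to 6000 genes and at most 5% mitochondrial UMIs were kept (8728, 5478 and 7297). The kept cells held 42335347, 40180209 and 44682600 UMIs, so the largest loss of UMIs was in Vehicle. No alternative changed the limits on genes per cell. Counts of a gene were summed per library and class and divided by the class total (CPM). With 1 library per condition no test was run. Ratios carry conditional binomial, levels exact Poisson and shares exact binomial (Clopper-Pearson) 95% intervals, which cover counting error only. A gene was called past 2-fold if it had at least 10 CPM in 1 of the 2 libraries. Lists were described by counts and medians. An item of a list is not reported here and was left out of its counts. All 10 members were reported, other genes by list membership or, for likeness to Id1, the 5 highest correlations. Doublets were kept: Scrublet's own threshold called 2, 6 and 7 cells, too few to have worked, so an alternative left out the cells highest by score at 0.8% per 1000 cells (609, 240 and 426).

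On simulated Vehicle and Matrigel-only stromal counts (8856 genes, 200 changed by 3-fold), 98.5% of changed genes were recovered. Both were drawn from the Matrigel-only profile with counting error only. The simulation therefore checks the arithmetic of the 2-fold rule and cannot speak to spread between real libraries. Alternatives covered scaling by edgeR 4.0.16 trimmed-mean factors (R 4.3.3), thresholds, cell filters and class rules. Python 3.11.15, numpy 2.4.6, scipy 1.17.1, pandas 2.3.3 and scanpy 1.11.5 were used.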

Additional observations from a re-analysis of the deposited data

Results flagged for a closer look

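The ratio of Vehicle to Matrigel-only CPM for Id1 pointed in opposite directions in different cells. In stromal cells with Pi16 but neither Sox9 nor Acan its log2 value was -1.21, in stromal cells with none of the 3 genes it was 1.35, and in macrophages it was 2.06. The difference between these cells was not tested, since each library was 1 sample. The first value rests on 10 Vehicle UMIs, and in groups rebuilt from cells thinned to equal depth the intervals of both libraries overlapped (18.4 and 15.3 CPM). For the second value, the rebuilt groups held Id1 at 48.0 CPM in Matrigel-only and 84.2 CPM in Vehicle, less than 2-fold apart. Those rebuilt groups also took in cells that held some of the 3 genes before thinning.

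Cells that were neither stromal nor macrophages by the rules above also held these genes in Vehicle. Id1 stood there at 83.3 CPM (71.7 to 96.2), against 10.9 CPM (6.76 to 16.7) in Matrigel-only and 15.6 CPM (9.80 to 23.7) in Palo. Id3 stood at 114 CPM (100 to 129), against 24.4 CPM (18 to 32.5) and 48.3 CPM (37.5 to 61.3). Of the 186 Vehicle Id1 UMIs in these cells, 80 (43.0%) came from 89 cells with at least 3 UMIs of basophil and mast cell markers and fewer of neutrophil and of lymphocyte markers. In those 89 cells Id1 was at 570 CPM (452 to 710), while Id3 was at 14.3 CPM, from 2 UMIs. Matrigel-only held 1 such cell and Palo 2, so their level could not be compared. Id3 in these cells came mostly from the 490 cells in which none of the 3 marker lists led, which held 222 of its 254 UMIs. Over all cells in neither class, endothelial markers summed to 43.2 CPM in Matrigel-only, 327 CPM for Vehicle and 59.0 CPM for Palo, with Emcn at 0 outside Vehicle. The median log2 ratio of these 7 markers was 4.78 for Vehicle over Matrigel-only and -3.46 for Palo over Vehicle, and Vwf alone went the other way. Over all genes tested in these cells the medians were 0.18 (quartiles -0.16 and 0.54) and -0.27 (-0.65 and 0.09). Chondrocyte markers summed to 6.24, 363 and 2.84 CPM. The part of these cells in the Id1 and Id3 levels was not tested.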

How the results depend on the processing

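No paired analysis was possible because each condition was 1 library, and leaving out a replicate was not possible for the same reason.

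Numbers of members past 2-fold are given here where they moved by more than 1.5 times. In stromal cells the numbers were 3, 1 and 0 for Vehicle over Matrigel-only, Palo over Vehicle and Palo over Matrigel-only. A fold of 1.5 gave 5, 4 and 1. Trimmed-mean factors gave 3 for Palo over Vehicle (Id1, Id3 and Bambi), and leaving out cells with Acan gave 2 there (Smad6 and Bambi). Cells with none of Pi16, Sox9 and Acan alone gave 5 for Vehicle over Matrigel-only and 2 for Palo over Vehicle. Of the settings added after seeing the data, Matrigel-only weights of the stromal groups gave 0 for Palo over Vehicle, and cells with Sox9 without Acan gave 1 for Vehicle over Matrigel-only (Bambi). In macrophages the numbers were 2, 2 and 1. For Palo over Matrigel-only, a fold of 1.5 gave 3, no minimum gave 2 (Id4 and Smad7), and a mitochondrial limit of 10%, 5 CPM added to both levels or Csf1r and C1qa both detected gave 0. Trimmed-mean factors gave 1 for Palo over Vehicle (Id1), 5 CPM added gave 0 there, and a minimum of 50 CPM gave 0 in all 3 comparisons, since it left out Id1 and Smad7. Macrophages without a UMI of the basophil or mast, neutrophil and lymphocyte lists, a setting added after seeing the data, gave 1 for Vehicle over Matrigel-only and 1 for Palo over Vehicle (Smad7 in both). The cause of the other shifts was not tested.

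Over the planned and added settings, the stromal log2 ratio of Vehicle over Matrigel-only ranged from 0.25 to 1.35 for Id1, 0.99 to 1.69 for Id3 and 1.25 to 3.38 for Bambi. For Palo over Vehicle Bambi ranged from -2.42 to -0.66. In macrophages Vehicle over Matrigel-only ranged from 1.11 to 2.35 for Id1 and 1.71 to 2.34 for Smad7. Of 188 values for ratios past 2-fold, 6 had the other sign, all of them Id4 in macrophages. Macrophage levels of Id4 and Smad6 rest on too few UMIs for a direction. Other levels under 10 CPM, such as stromal Id4, have wide intervals for their size. The stromal Id4 ratio of Palo over Vehicle kept its sign in 15 of 17 alternatives.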
